A study of Mus musculus with 4 samples.

Results

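Monocytes of the fracture callus that carried little or no C1q transcript were taken, barcode by barcode, from both callus single-cell RNA-Seq libraries, 1 from control mice and 1 from mice given glucocorticoid (GC). Members were chosen by their own measured UMIs. A barcode was kept when it held at least 500 UMIs (unique molecular identifiers, each marking 1 captured RNA molecule) and 200 genes, at most 10% mitochondrial UMIs, at least 1 UMI of Csf1r and 1 of Mpeg1, no Siglech, and limited amounts of 4 other signals. S100a8 plus S100a9 had to be under 1% of the barcode's UMIs, Acp5 plus Ctsk under 0.2%, Col2a1 under 1%, and C1qa, C1qb and C1qc together under 0.05%. The rule left 874 barcodes, 437 in control callus and 437 in GC callus, out of 14451 callus barcodes within the UMI, gene and mitochondrial limits and 23216 in all 4 libraries of the series. They made up 6.13% of the control callus barcodes within those limits (exact Clopper-Pearson 95% interval 5.58% to 6.71%) and 5.97% of the GC callus barcodes (5.44% to 6.54%), so the share was alike in both libraries.

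The mice were C57BL/6J males of 20 weeks with no altered allele named in the labels, and tissue was taken at week 2 of placebo (control) or of prednisolone, a synthetic glucocorticoid, at 6.25 mg/kg/d (GC). The labels describe slow-release pellets under the skin for each library, whereas the study describes daily injection for its fracture model, and the number of mice behind a library is not given in the sources used here. Cells were freed from crushed tissue with collagenase II, dispase II and DNase I after the marrow had been flushed out, and were loaded on a 10x Genomics kit. There was 1 library per condition and tissue, so no test between conditions was possible, and each interval given here is a 95% interval that covers counting error only.

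The members held a median of 4924 UMIs (range 987 to 34632) and 1716 genes in control callus, and 4044 UMIs (661 to 45405) and 1571 genes in GC callus. Mitochondrial UMIs were 2.43% and 2.59% at the median. Summed over the members, the libraries gave 2451383 UMIs (control) and 2045036 (GC), and levels are given as UMIs per 1000000 of these sums (CPM). Gene positions are those of GENCODE M21 on GRCm38 (mm10). At this depth 3 UMIs are worth 1.22 CPM in control and 1.47 CPM in GC, which is the floor for a gene with no UMI. Because levels are shares of a summed total, fewer transcripts of a gene per cell and fewer cells with the gene cannot be told apart from the CPM alone, and counts of cells with a UMI are given beside the main genes. The GC callus matrix listed 7762 barcodes, each with at least 500 UMIs, whereas the control callus matrix listed all 6794880 possible barcodes.

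Monocytes are made in the bone marrow, circulate in blood and enter injured tissue, where they can become macrophages, dendritic cells or osteoclasts. In mice the classical subset carries Ly6c2 and the chemokine receptor Ccr2, which guides its exit from marrow and entry into tissue, whereas the nonclassical subset patrols vessel walls and carries Cx3cr1, Ace and Treml4. C1q, the first component of the classical complement pathway, is made by many tissue macrophages and is low in blood monocytes. Csf1r is the receptor for the growth factors that keep both cell types alive, and Mpeg1 encodes a pore-forming protein of phagocytes.

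The limits of the rule were measured values of these same cells. Levels of the genes in it were in part fixed by the rule, and where they enter a list or a ranking they are description only. No C1q UMI was found in 417 of the 437 control members and in 418 of the 437 GC members. The member with most C1q reached 0.0486% of its UMIs in control and 0.0459% in GC. The next barcodes on the other side of that limit held 0.0716% and 0.0515%, and the barcodes it left out had medians of 0.413% and 0.313%. For S100a8 plus S100a9 the highest members held 0.899% and 0.964%, and the lowest of the 52 and 53 barcodes that this limit alone left out held 1.01% and 1.05%. For Col2a1 the highest members held 0.818% and 0.991%, and the lowest of the 46 and 40 barcodes left out by it alone held 1.25% in each library. For Acp5 plus Ctsk the highest members held 0.181% and 0.187% against 0.385% and 0.295% in the lowest of the 24 and 19 barcodes left out by it alone. Exactly 1 Csf1r UMI was found in 201 control and 205 GC members, with a median of 2 in each library, so many members met that limit by a single molecule. Of the callus barcodes within the limits, 12 had the same barcode sequence in both libraries, and 0 of these were members. Doublets were not removed.

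The given markers were present. Lyz2, the lysozyme gene of myeloid cells, stood at 5089 CPM in control and 5226 CPM in GC and was found in 421 of the 437 members of each library. Chil3, a chitinase-like protein of classical monocytes and their precursors, stood at 441 CPM in control (206 members) and 960 CPM in GC (250 members). Ccr2 stood at 224 CPM (212 members) and 170 CPM (176 members). The 12 classical monocyte markers summed to 11733 and 10497 CPM in the members, against 1734 and 2177 CPM in callus B cells and 2557 and 3748 CPM in callus neutrophils. C1q macrophages were near the members, at 9269 and 7965 CPM, so the sum sets the members apart from B cells and neutrophils more than from macrophages. The 11 nonclassical markers summed to 794 and 934 CPM in the members, 372 and 297 CPM in B cells and 905 and 846 CPM in neutrophils, so their sum did not set the members apart from neutrophils.

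After each barcode had been thinned at random to 1000 UMIs, which left out 1 control and 2 GC members, Ccr2 was found in 17.2% of control (13.8% to 21.1%) and 13.6% of GC members (10.5% to 17.1%), and in 48.5% and 40.3% before thinning. In B cells of the same libraries, which should lack it, Ccr2 was found in 0 of 389 and 0 of 145 thinned cells (0 and 0.667% before thinning) at median depths of 2164 and 2045.5 UMIs. For Chil3 the thinned shares were 29.1% and 41.6% in the members against 0.257% and 1.38% in the B cells, with 47.1% and 57.2% of the members before thinning. For Ly6c2, which encodes the surface antigen that defines the classical subset, 109 of 436 and 20.2% of thinned members had it, against 0.771% and 3.45% of the B cells, with 56.3% and 41.2% of the members before thinning.

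To show the region ahead of a gene that marks these cells and of a macrophage elastase gene that stood higher in the GC members, the 250 bases before the RefSeq start (GRCm38.p6) are printed here. Capitals mark PU.1 matches (GAGGAAGT on either strand, PU.1 being the factor of the myeloid lineage encoded by Spi1) and C/EBP matches (TTGCNNAA on either strand). Ly6c2 lies at chr15:75111972-75112221 on the minus strand, with the PU.1 letters beginning 108 bases before the start. Mmp12 lies at chr9:7344147-7344396 on the plus strand, with the PU.1 letters 88 and the C/EBP letters 39 bases before the start.
Ly6c2: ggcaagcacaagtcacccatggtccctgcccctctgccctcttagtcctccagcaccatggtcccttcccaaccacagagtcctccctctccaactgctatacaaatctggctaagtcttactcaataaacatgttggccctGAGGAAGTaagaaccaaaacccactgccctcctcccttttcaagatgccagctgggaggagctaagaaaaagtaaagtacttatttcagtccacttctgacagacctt
Mmp12: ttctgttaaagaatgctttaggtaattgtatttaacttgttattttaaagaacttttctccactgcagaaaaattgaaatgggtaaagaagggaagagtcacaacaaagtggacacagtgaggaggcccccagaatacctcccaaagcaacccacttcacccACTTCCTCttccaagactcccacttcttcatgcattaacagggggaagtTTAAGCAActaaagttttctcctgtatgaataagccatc

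Over 27025 promoter windows of that length, 2.44% held the PU.1 letters, 9.55% the C/EBP letters and 16.2% the 6 letters AGAACA, which form the glucocorticoid receptor half-site. Of the 9 classical monocyte markers with a window, 1 held the PU.1 letters and 0 the C/EBP letters or AGAACA. The 1 with a match was Ly6c2, and the windows of Ccr2, Chil3 and Lyz2 had none. Among the genes named below as most different between the libraries, 6 of the 12 higher in GC had a window, with 0, 1 and 0 matches, and 9 of the 12 lower in GC had a window, with 0 matches to any of the 3. Mmp12 is in none of these sets, and it did not stay at least 1.5-fold higher in GC in each alternative setting. These are matches of letters only.

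Against callus C1q macrophages, the members carried more classical monocyte transcripts and less of a set of resident macrophage transcripts. C1q macrophages were the 53 control and 61 GC barcodes that met each other limit but held 0.05% C1q or more (median 7375 and 5417 UMIs). Since the rule divides the cells by C1q, this contrast is a description with no test. Of 3276 genes with at least 100 UMIs over both classes in each library, 123 (3.75%) were at least 2-fold higher in the members in both libraries and 112 (3.42%) at least 2-fold lower, on a scale of log2 with 5 CPM added. The median log2 ratio of all these genes was 0.07 in control and -0.01 in GC.

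Of 11 classical monocyte markers counted, 8 were at least 2-fold higher in the members and 0 were lower, with a median log2 ratio of 2.66 in control and 2.20 in GC. Ly6c2 was measured at 513 CPM in control and 298 CPM in GC members, against 32.8 and 7.64 CPM in C1q macrophages. Vcan, the proteoglycan versican, was measured at 130 and 182 CPM in the members, against 2.18 and 7.64 CPM. Plac8, a small cysteine-rich protein of monocytes and lymphocytes, was measured at 1980 and 707 CPM, against 124 and 71.3 CPM. Each of these differences had the same direction in both libraries. Lyz2 was not among them, at 7736 and 6901 CPM in the macrophages.

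The 12 genes highest over C1q macrophages were Vcan, Ly6c2, Prtn3, Mpo, Ifitm6, Plac8, Chil3, Hopx, Itgal, Ifitm3, Ceacam1 and Gpr141. Itgal encodes the alpha chain of the integrin LFA-1 and stood at 213 and 224 CPM in the members against 28.4 and 20.4 CPM. Ifitm3, an interferon-induced protein that restricts viral entry, stood at 1856 and 1219 CPM against 290 and 188 CPM. Mpo and Prtn3 are granule proteases and enzymes of early granulocytes and monocytes. They came from few barcodes, with Mpo in 7 control and 5 GC members and 96.6% of its GC UMIs from 1 barcode.

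The lowest were C1qa, C1qc, C1qb, which the rule used, then Pf4, Mrc1, Selenop, Ms4a7, Dab2, Serpinb6a, Trem2, Maf and Aif1. Mrc1, the mannose receptor of tissue macrophages, stood at 9.38 and 4.89 CPM in the members against 347 and 356 CPM. Selenop, a secreted selenium carrier, stood at 93.0 and 96.3 CPM against 1024 and 2288 CPM. Of 10 macrophage markers counted, 9 were at least 2-fold lower in the members and 0 higher, the 3 C1q genes among them. Apoe, the lipid carrier apolipoprotein E, stood at 1234 and 1057 CPM against 4163 and 4467 CPM, so the members had less of it but were far from lacking it. Of 14 lysosome genes, 6 were at least 2-fold lower and 0 higher. Cathepsin B (Ctsb) stood at 1316 and 2095 CPM against 3947 and 6058 CPM.

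**Figure D1:**
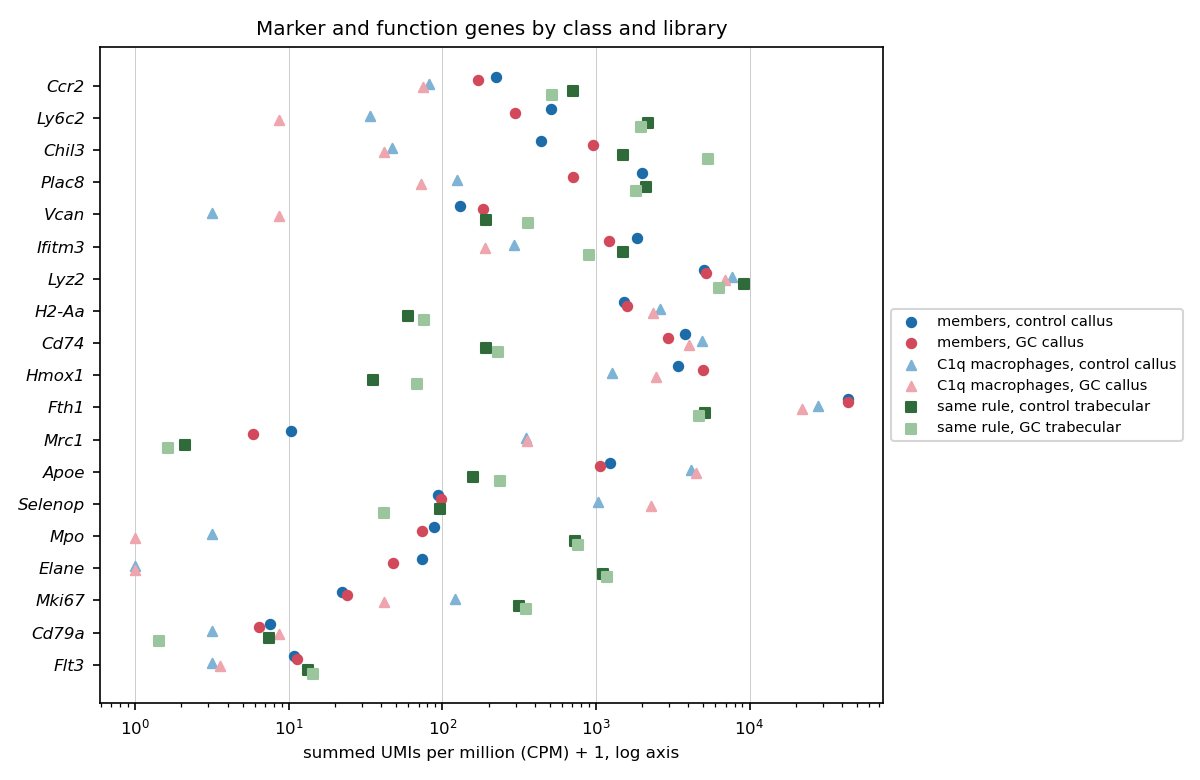
Levels of 19 genes as CPM plus 1 on a log axis, each point being the summed UMIs of a class in 1 library. The members (circles) lie between the C1q macrophages (triangles) and the trabecular barcodes of the same rule (squares) for Ly6c2 and Chil3, far above the trabecular barcodes for H2-Aa and Hmox1, and far below the macrophages for Mrc1.

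The same rule picked 251 barcodes of control and 244 of GC trabecular bone, with median depths of 13592 and 15529 UMIs. Tissue and library cannot be told apart in this contrast. Of 6316 genes counted, 721 (11.4%) were at least 2-fold higher in the callus members under both treatments and 1137 (18%) at least 2-fold lower, and the median log2 ratio of all genes was -0.20 in control and -0.22 in GC. Callus members carried less of the immature myeloid and cycling transcripts. All 5 counted granulocyte-monocyte progenitor markers and 9 of 10 cycling markers were at least 2-fold lower, and 0 were higher. Elane, the neutrophil elastase gene, stood at 72.6 and 46.5 CPM in callus against 1112 and 1177 CPM in trabecular bone. Mki67, a marker of cycling cells, stood at 21.2 and 23.0 CPM against 316 and 348 CPM. Classical markers were lower as well, 7 of 12 by 2-fold or more, with Ly6c2 at 2171 and 1959 CPM and Ccr2 at 709 and 517 CPM in trabecular bone.

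Antigen presentation genes went the other way. Of 7 counted MHC class II genes, which load and display peptides to T cells, 5 were at least 2-fold higher in the callus members and 0 lower. H2-Aa stood at 1514 and 1589 CPM against 58.3 and 74.8 CPM in the trabecular barcodes, and Cd74, the invariant chain, at 3789 and 2948 CPM against 190 and 230 CPM. H2-Aa was found in 215 control and 180 GC members, and callus neutrophils, which should carry little, stood at 45.5 and 33.2 CPM. The 8 listed MHC class II genes summed to 8044 and 6912 CPM in the members. Callus C1q macrophages held more of them, at 12335 and 10136 CPM, and so did callus B cells, at 11951 and 9209 CPM. The iron handling genes were split, with 4 of 7 counted at least 2-fold higher in the callus members and 2, Lcn2 and Hp, at least 2-fold lower. Hp, haptoglobin, which binds free hemoglobin, stood at 96.3 and 76.3 CPM against 708 and 999 CPM. Hmox1, heme oxygenase 1, which breaks down heme and releases its iron, stood at 3444 and 4945 CPM against 34.2 and 67.7 CPM. Fth1, the ferritin heavy chain that stores iron, was at 43590 and 43580 CPM in the members and at 5167 and 4689 CPM in trabecular bone. Callus neutrophils were also high in Fth1, at 59050 and 55326 CPM, whereas callus B cells stood at 5160 and 6706 CPM.

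The 8 genes highest over the trabecular barcodes were Col10a1, Sparc, Col2a1, Mgp, Col1a2, Snorc, Ibsp and Hmox1, of which 7 encode matrix or secreted products of cartilage and bone. The members held 1794 and 1081 CPM of Col10a1, the collagen of hypertrophic chondrocytes, and the control callus barcodes of 10 to 100 UMIs, which are mostly empty droplets, held 11871 CPM. The 8 lowest were Lcn2, Hist1h2ap, Ctsg, Ngp, Prtn3, Pclaf, Hist1h1b and Elane, which belong to granules or to DNA replication.

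Transcripts of other cell types were present in both libraries. The 10 chondrocyte markers summed to 3765 CPM in control and 2550 CPM in GC members, led by Col2a1, with 0 of the 10 at 0. In callus B cells they summed to 4074 and 3782 CPM, and in callus neutrophils to 4353 and 1795 CPM. The same upper limit on Col2a1 was set for all 3 cell types, so these sums were in part fixed by it. The 10 stromal and bone-forming markers summed to 2417 and 6624 CPM, led by Sparc, with 0 at 0, against 2343 and 4207 CPM in B cells and 2465 and 1619 CPM in neutrophils. In control the 3 sums were near each other, whereas in GC the members stood highest and the neutrophils lowest. The sum was carried by few members: when the members were clustered by their expression (Leiden method, resolution 1), a group of 19 barcodes (9 control and 10 GC) held 35226 CPM of these markers, and each of the other 11 groups held between 1158 and 1930 CPM. The 12 neutrophil markers summed to 408 and 351 CPM, led by S100a8, whose limit the rule set, and Ly6g, which defines neutrophils, was at 0. The 7 erythroid markers, led by the globin Hbb-bs, summed to 446 and 274 CPM. In control, 77.1% of the Hbb-bs UMIs came from 1 barcode, and at least 2 erythroid UMIs were found in 42 control and 114 GC members.

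B cell markers summed to 41 and 31 CPM against 3937 and 2715 CPM in callus B cells, with 10 control and 12 GC members at 2 UMIs or more. T and NK cell markers summed to 49 and 15 CPM, with Ncr1 and Klrb1c at 0, and 7 control and 5 GC members held at least 2 of their UMIs. At a Leiden resolution of 1, a group of 15 members (10 control and 5 GC) led by Il2rb, Ctla2a and Trbc2 held 844 CPM of them. Conventional dendritic cell markers, led by Ccr7, summed to 113 and 100 CPM with 0 of the 11 at 0, and 43 and 34 members held at least 2 of their UMIs. Endothelial markers, led by Pecam1, summed to 30 and 25 CPM, osteoclast markers, led by Acp5, to 148 and 124 CPM with Calcr at 0, and mast cell and basophil markers to 2 and 1 CPM. Plasmacytoid dendritic cell markers summed to 461 and 321 CPM, most of it Runx2 and Tcf4, with Siglech (by the rule) and Klk1 at 0. The part of these other cells in the results was not tested.

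Chondrocyte and stromal markers together reached 1% of UMIs in 14 control and 11 GC members. These members were deep in GC, with a median of 16073 UMIs against 3978.5 in the other GC members, and 5644.5 against 4901 in control.

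The members varied among themselves along lines that in part followed the library. Clustered together without the genes of the rule, they fell into 6 subclusters of 290, 205, 167, 111, 57 and 44 barcodes, and a group is described by its leading genes only. Subcluster 1 (283 control and 7 GC members) was led by Osm, Ccl2, Egln3 and Hilpda. Subcluster 2 (23 and 182) was led by Gpnmb, P2rx7 and Lhfpl2, and subcluster 3 (30 and 137) by Cxcl10, Rsad2, Ifit1 and Acod1. With 1 library per condition, a group made mostly of 1 library may be that library and not a kind of cell.

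Subcluster 4 (55 and 56) held a nearly equal number of members of each library and was led by Ace, Dusp16, Cd36 and Smpdl3b, with Cx3cr1, Fabp4 and Treml4 also among its first 10 genes. Since 5 of the 10 are nonclassical monocyte markers, it is called nonclassical monocyte-like. Its 111 barcodes were not of 1 kind, since their neutrophil markers summed to 1804 CPM, against 179 to 349 CPM in the other 5 subclusters. At a Leiden resolution of 1, 84 barcodes (43 and 41) led by Ace and Cd36 stood apart, with neutrophil markers at 148 CPM, from 31 barcodes (14 and 17) led by Retnlg, with neutrophil markers at 5665 CPM. It was 12.6% of control and 12.8% of GC members, with a median of 2918 UMIs. Subcluster 5 (35 and 22) was led by Prtn3, Mgp, Mpo and Col3a1 and had a median of 11299 UMIs. Its stromal markers summed to 15944 CPM and its progenitor markers to 1496 CPM, and it stays unnamed. At a Leiden resolution of 1, progenitor and stromal markers were highest in different groups. In 25 barcodes (18 and 7) led by Prtn3 and Mpo, they summed to 3374 and 1356 CPM. In 19 barcodes (9 and 10) led by Mgp and Col3a1, they summed to 16 and 35226 CPM. Subcluster 6 (11 and 33) was led by Ramp3, Ifitm1, Ccr7 and Cd7, and its dendritic cell markers summed to 600 CPM, against 34 to 133 CPM in the other 5 subclusters.

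**Figure D2:**
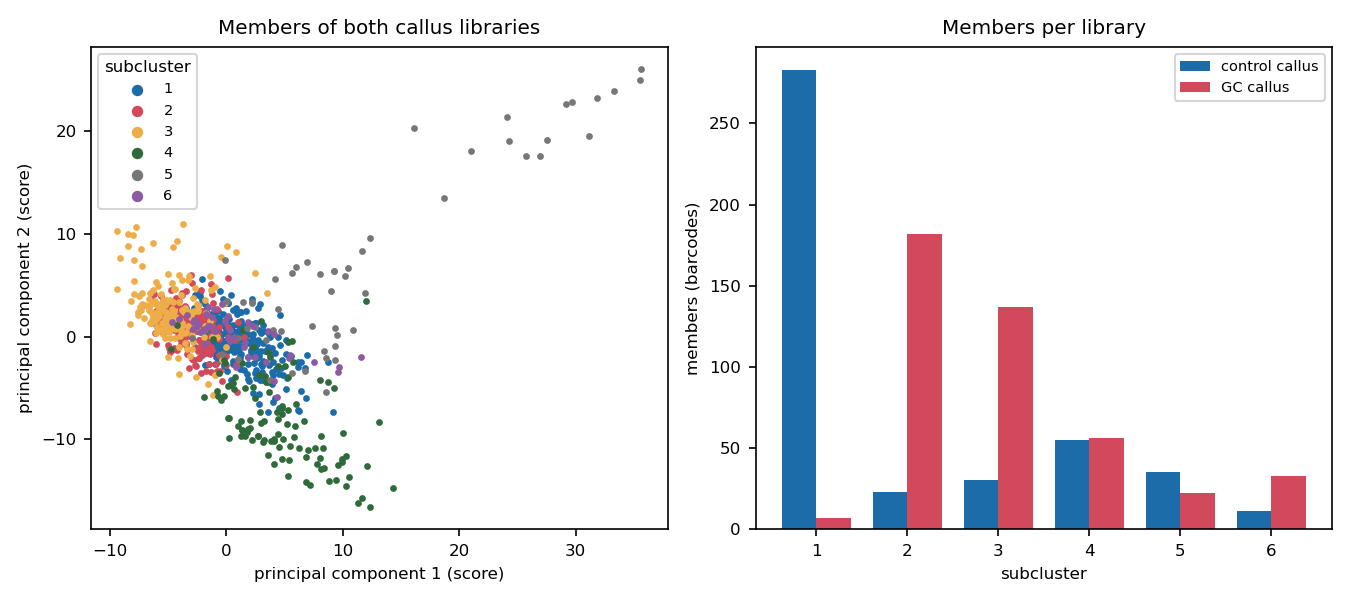
Left, the 874 members by their scores on the first principal components, colored by subcluster. Right, barcodes per subcluster in control (blue) and GC (red) callus: subclusters 1, 2 and 3 come mostly from 1 library (283 and 7, 23 and 182, 30 and 137), whereas subcluster 4 holds 55 and 56.

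The GC members held less of Osm, Plac8, Il1b, Cish, Ccl2, Hilpda and Egln3, and more of Flrt3, Mylip, Chil3, Tnf and mt-Atp8, than the control members. Between GC and control callus, 4911 genes had at least 100 UMIs over the members of both libraries. Of these, 384 (7.82%) were at least 1.5-fold higher in GC and 368 (7.49%) at least 1.5-fold lower, on the log2 scale with 5 CPM added, which understates the ratio of low genes. The median log2 ratio was 0.01, so the libraries were centered alike. Among the genes of the lists and those named, 16 of the 35 that were at least 1.5-fold higher and 42 of the 60 that were at least 1.5-fold lower stayed so in all 15 alternative settings. The rest, among them Itgb1, Icam1, Grn, Clec4e, Mmp12, Slc11a2, Il4ra, Tgfbr2, H2-DMa, Ccl4, Ccl9, Irf5, Klf2, Eno1 and Ncoa2, did not. All these counts are of genes past a fold, not of genes that passed a test. Subclusters 1 to 3 differ in their share of each library, so a difference in a gene's level and a difference in the subclusters present cannot be told apart.

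**Figure D3:**
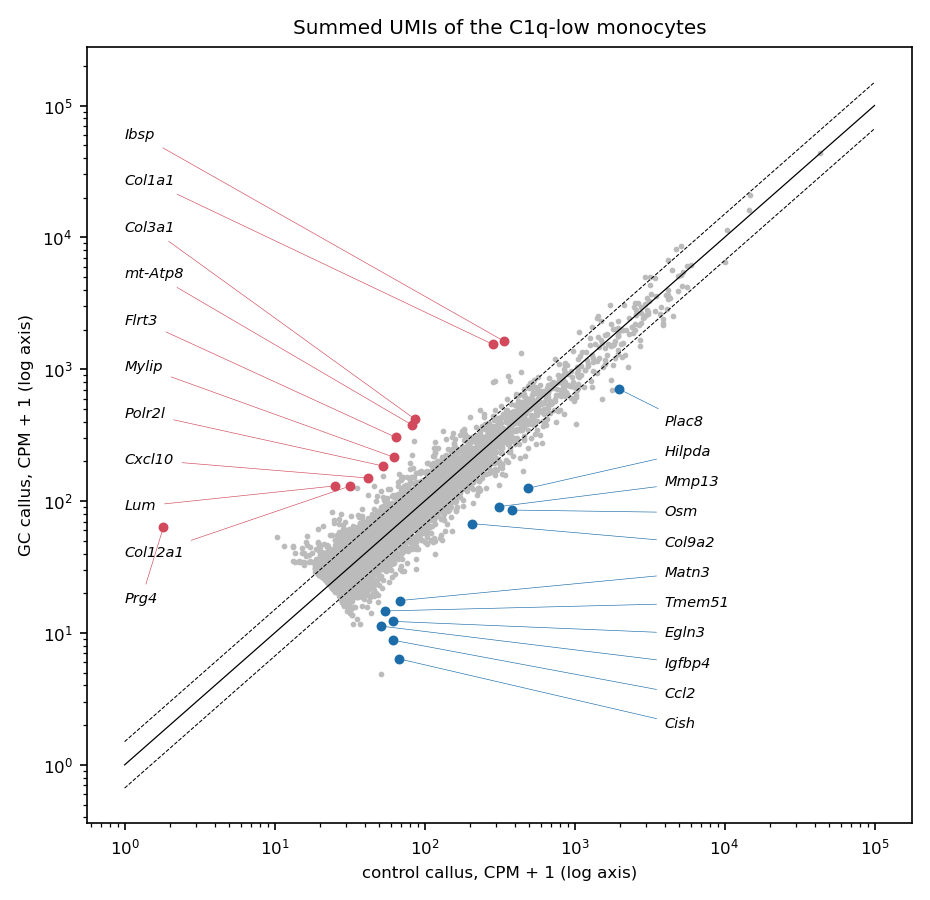
Each point is a gene with at least 100 UMIs over the members of both callus libraries, at its CPM plus 1 in control (x) and GC (y), both on log axes, with lines at equality and at 1.5-fold either way. Of the 12 genes with the highest log2 ratio (red) and the 12 with the lowest (blue), 11 each are labeled, with Plac8 at 1980 and 707 CPM the most abundant of the blue ones in control.

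Of the 12 genes with the highest log2 ratio of GC over control, 6 encode matrix proteins of connective tissue, and a single GC barcode held a large share of the UMIs of each. Prg4, lubricin of joint surface cells, had 2 control UMIs and 128 GC UMIs, every one of the latter from the same barcode. Col1a1, the main collagen chain of bone, stood at 285 CPM in control and 1543 CPM in GC, with 66.9% of the GC UMIs in 1 barcode. Ibsp, bone sialoprotein, stood at 339 and 1629 CPM, with 1665 of its 3332 GC UMIs in 1 barcode. Col3a1, Lum and Col12a1 had 71.9%, 89.8% and 83.7% of their GC UMIs in 1 barcode. Without the barcode that held the most UMIs of each gene, the log2 ratio was -0.11 for Prg4, -0.65 for Lum and -0.16 for Col12a1. For Col1a1, Ibsp and Col3a1 it was 1.03, 1.43 and 0.79. Without members above 2 times their library's median UMIs, Col1a1 stood at 0.81, Ibsp at 0.39, under 1.5-fold, and Col3a1 at -1.38. Without members that held markers of another cell type, a choice that itself uses these 3 genes, they stood at -0.38, -0.11 and -1.57.

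The other 6 rested on no single barcode to that extent, and 5 of them are given here. Flrt3, a transmembrane protein of cell adhesion and axon guidance (chr2:140650914-140671469), stood at 63.2 CPM in control and 304 CPM in GC, a ratio of 4.80 (4.02 to 5.76), and was found in 66 control and 171 GC members. Thinned to equal depth it was in 5.28% of control (3.37% to 7.81%) and 18.9% of GC members (15.3% to 22.8%), against 0 and 0.690% of the B cells, and in 15.1% and 39.1% of the members before thinning. Mylip, a ubiquitin ligase that lowers the LDL receptor, stood at 61.2 and 215 CPM, in 94 and 219 members. Flrt3 was low in callus B cells and neutrophils of both libraries (at most 5.75 CPM), whereas Mylip stood at 124 and 144 CPM in B cells.

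Cxcl10, an interferon-induced chemokine for T cells (chr5:92346638-92348889), stood at 41.2 and 149 CPM but in only 26 control and 38 GC members. Polr2l, a subunit shared by RNA polymerases, stood at 52.2 and 183 CPM. The mitochondrial gene mt-Atp8, a subunit of ATP synthase, stood at 82.0 and 376 CPM in 155 and 329 members. It was also higher in GC in callus B cells, at 143 and 616 CPM, and in callus neutrophils, at 24.1 and 208 CPM, so this difference was common to 3 cell types of the callus libraries. Each of the 6 stayed at least 1.5-fold higher in all 15 alternative settings.

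**Figure D4:**
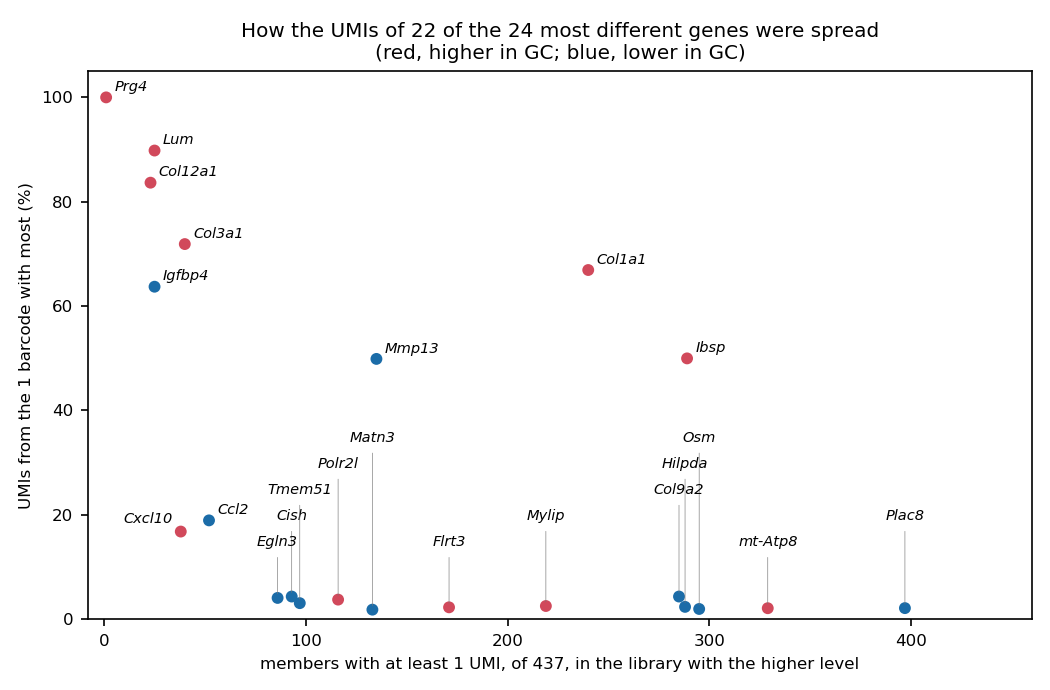
For 22 of the 24 genes most different between the libraries, the number of members with at least 1 UMI (x, of 437, in the library with the higher level) and the share of that gene's UMIs that came from the 1 barcode with most (y, percent). Prg4, Lum, Col12a1, Col3a1, Igfbp4, Col1a1, Ibsp and Mmp13 rest on 1 barcode for 49.9% to 100% of their UMIs, whereas Osm, Plac8, mt-Atp8, Mylip and Flrt3 are spread over 171 to 397 members.

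Of the 12 genes with the lowest ratio, 10 stayed at least 1.5-fold lower in all 15 alternative settings. They included the cytokine gene Osm and the chemokine gene Ccl2. Osm, oncostatin M, an IL-6 family cytokine known to favor bone formation (chr11:4236420-4241026), stood at 379 CPM in control and 84.6 CPM in GC, a ratio of 0.223 (0.189 to 0.263), in 295 and 114 members. Thinned, Osm was found in 31.0% of control (26.7% to 35.5%) and 7.82% of GC members (5.47% to 10.8%), against 0.257% and 1.38% of the B cells, and before thinning in 67.5% and 26.1% of the members. Osm was lower in GC in callus neutrophils too, at 747 and 109 CPM, and in C1q macrophages, at 330 and 76.4 CPM.

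Plac8 (chr5:100553725-100572245) stood at 1980 and 707 CPM, a ratio of 0.357 (0.336 to 0.379), in 397 and 291 members. In callus B cells, which also express it, Plac8 stood at 1143 and 909 CPM. Cish, an inhibitor induced by cytokines that signal through STAT5, stood at 66.1 CPM in control and 5.38 CPM in GC, a ratio of 0.0814 (0.0398 to 0.150), in 93 and 10 members. Ccl2, the chemokine ligand of Ccr2, stood at 60.4 and 7.82 CPM, in 52 and 16 members.

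Hilpda, a lipid droplet protein induced by low oxygen (chr6:29272488-29275446), stood at 488 and 124 CPM, in 288 and 109 members. Egln3, an oxygen-sensing prolyl hydroxylase that is itself induced by low oxygen, stood at 60.4 and 11.2 CPM, in 86 and 19 members. In callus neutrophils both were lower in GC as well, at 619 and 107 CPM for Hilpda and at 201 and 29.3 CPM for Egln3. Tmem51, a membrane protein, stood at 53.4 and 13.7 CPM. Matn3 and Col9a2 are cartilage genes, and they were lower in GC in the members, the B cells and the neutrophils alike, with Col9a2 at 208 and 66.5 CPM, 224 and 69.0 CPM, and 249 and 60.6 CPM. For the other 2 genes, a single barcode held 63.7% of the control UMIs of Igfbp4 and 49.9% of those of Mmp13, and without it their log2 ratios were -0.87 and -1.24. Both were under 1.5-fold in at least 1 other setting, with Igfbp4 at -0.29 without members above 2 times their library's median UMIs and Mmp13 at -0.17 with the C1q limit at 0.1%.

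Counts by list stand beside shares over all 4911 genes of 7.82% higher and 7.49% lower in GC. By marker list, the classical monocyte genes did not move as 1 group. Of 12 counted, 1 was at least 1.5-fold higher in GC (Chil3) and 3 at least 1.5-fold lower (Ly6c2, Plac8 and Ifitm3), and the median log2 ratio was -0.22. Chil3 (chr3:106147554-106167564) was 441 CPM in control and 960 CPM in GC, a ratio of 2.18 (2.02 to 2.35). It was higher in GC in callus neutrophils too (372 and 1193 CPM), in callus B cells (2.45 and 28.8 CPM) and in the trabecular barcodes of the same rule (1504.5 and 5345 CPM). In C1q macrophages it was not, at 45.9 and 40.7 CPM. Ly6c2 (chr15:75108158-75111970) was 513 and 298 CPM, a ratio of 0.581 (0.526 to 0.640). Fn1, fibronectin, and Vcan lay between the limits at log2 ratios of 0.47 and 0.48. Of 9 nonclassical markers counted, Cd36 was at least 1.5-fold higher (241 and 371 CPM) and Nr4a1, the transcription factor on which nonclassical monocytes depend, at least 1.5-fold lower (97.9 and 56.2 CPM). Fabp4 and Eno3 were under the minimum. Of 12 genes of myeloid identity, 1 was at least 1.5-fold lower in GC (Fcgr3, an Fc receptor) and 0 were higher.

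Among the inflammatory cytokines, 3 of the 7 counted were at least 1.5-fold lower in GC and 1 at least 1.5-fold higher, and 5 of the list of 12 were too low to count. Il1b, interleukin 1 beta (chr2:129364570-129371139), stood at 1026 CPM in control and 387 CPM in GC, a ratio of 0.377 (0.348 to 0.409), in 246 and 139 members. Cxcl2, a neutrophil attractant, stood at 2288 and 1046 CPM, in 292 and 193 members. Callus neutrophils held more of both in control, with Il1b at 4057 and 447 CPM and Cxcl2 at 11786 and 1628 CPM, whereas B cells held 29.3 and 9.59 CPM of Il1b. Tnf, tumor necrosis factor (chr17:35199381-35202007), was the one on the other side, at 20.0 CPM in control and 63.6 CPM in GC, a ratio of 3.18 (2.27 to 4.51), in 35 and 76 members. Ptgs2, the inducible cyclooxygenase, stood at 437 and 449 CPM, Nlrp3 at 304 and 283 CPM and Il1a at 31.4 and 36.7 CPM, none past 1.5-fold.

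The alternative activation and scavenger genes were split, with 2 of 7 counted at least 1.5-fold higher in GC and 2 lower. Il1rn, the antagonist of the interleukin 1 receptor, stood at 116 and 232 CPM, a ratio of 2.00 (1.72 to 2.33), in 104 and 131 members. Within subclusters 2, 3 and 4 its ratio was 0.626 (0.385 to 1.06), 0.855 (0.674 to 1.09) and 1.10 (0.690 to 1.77), and within subcluster 5 it was 1.59 (0.938 to 2.69). Il4ra, the interleukin 4 receptor alpha chain, stood at 191 and 124 CPM. Cd163, the hemoglobin scavenger receptor that glucocorticoids are known to induce in monocytes, had 2 UMIs in control and 3 in GC, so no difference was detectable at this depth. Mrc1 had 23 and 10 UMIs, and Il10 54 and 36.

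Of the chemokine list, 4 of 9 counted genes were at least 1.5-fold lower in GC and 0 were higher, with a median log2 ratio of -0.44. Ccl2 was the lowest, and Ccl9, which attracts osteoclast precursors, stood at 163 and 88.5 CPM. Ccl5 stood at 180 and 90.5 CPM but came from 35 and 27 members, and Ccl4 at 89.7 and 53.8 CPM from 41 and 26. The receptors Ccr1 (344 and 331 CPM) and Ccr2 (224 and 170 CPM) were not past 1.5-fold. Among 14 adhesion and trafficking genes, Itgb1, the integrin beta 1 chain (186 and 291 CPM), and Icam1, the ligand of LFA-1 (20.0 and 39.1 CPM), were at least 1.5-fold higher in GC and 0 were lower. Of 14 receptors for colony-stimulating factors and cytokines, Csf2rb2, a beta chain for interleukin 3, was at least 1.5-fold higher (183 and 290 CPM), and Il17ra (144 and 84.1 CPM) and Tgfbr2 (29.8 and 14.7 CPM) at least 1.5-fold lower. Csf1r itself, on which the members were chosen, was 350 and 408 CPM.

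The known targets of the glucocorticoid receptor did not move as 1 group. Of 13 counted, 2 were at least 1.5-fold higher in GC, 2 lower and 9 between, and the median log2 ratio was 0.06 beside 0.01 for all genes. Over all 4911 genes counted, 7.82% were at least 1.5-fold higher and 7.49% lower. Mt1, a metallothionein that binds zinc and copper, stood at 296 and 491 CPM, a ratio of 1.66 (1.51 to 1.83), and Txnip, an inhibitor of thioredoxin and glucose uptake, at 84.0 and 151 CPM. Fkbp5, a cochaperone of the receptor, had 23 UMIs in control and 44 in GC (9.38 and 21.5 CPM, a ratio of 2.29, 1.36 to 3.98), which is under the 100 UMIs asked of a counted gene. Tsc22d3, which encodes the leucine zipper protein GILZ, was 31.8 and 27.9 CPM, with a ratio of 0.876 (0.611 to 1.25). Per1, a clock gene, was lower in GC at 54.7 and 28.4 CPM, and so was Errfi1, a feedback inhibitor of EGF receptor signaling, at 255 and 124 CPM. Dusp1, a phosphatase that dampens MAP kinase signals, was 540 and 376 CPM and not past 1.5-fold. The receptor gene itself, Nr3c1, was 106 and 130 CPM, found in 165 and 168 members, and of the 5 receptor and cofactor genes counted Ncoa2, a coactivator, was at least 1.5-fold lower (log2 ratio -0.75).

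The gene list with the lowest median was that of immediate early and dissociation stress genes, at -0.68. Of 12 counted, 7 were at least 1.5-fold lower in GC (Fos, Jun, Junb, Jund, Ier2, Ier3 and Atf3) and 1, Fosb, was higher. Junb, a subunit of the AP-1 transcription factor, stood at 1028 and 633 CPM, in 407 and 345 members. Ier3, an early response gene of survival signals, stood at 845 and 457 CPM, in 380 and 262 members. Fos stood at 463 and 220 CPM in 284 and 118 members, with 34.1% of the GC UMIs in 1 barcode. Fosb stood at 143 and 246 CPM, and its log2 ratio turned to -0.65 without members that held markers of another cell type. These genes can also be set off by tissue digestion, and its part in their levels was not tested.

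**Figure D5:**
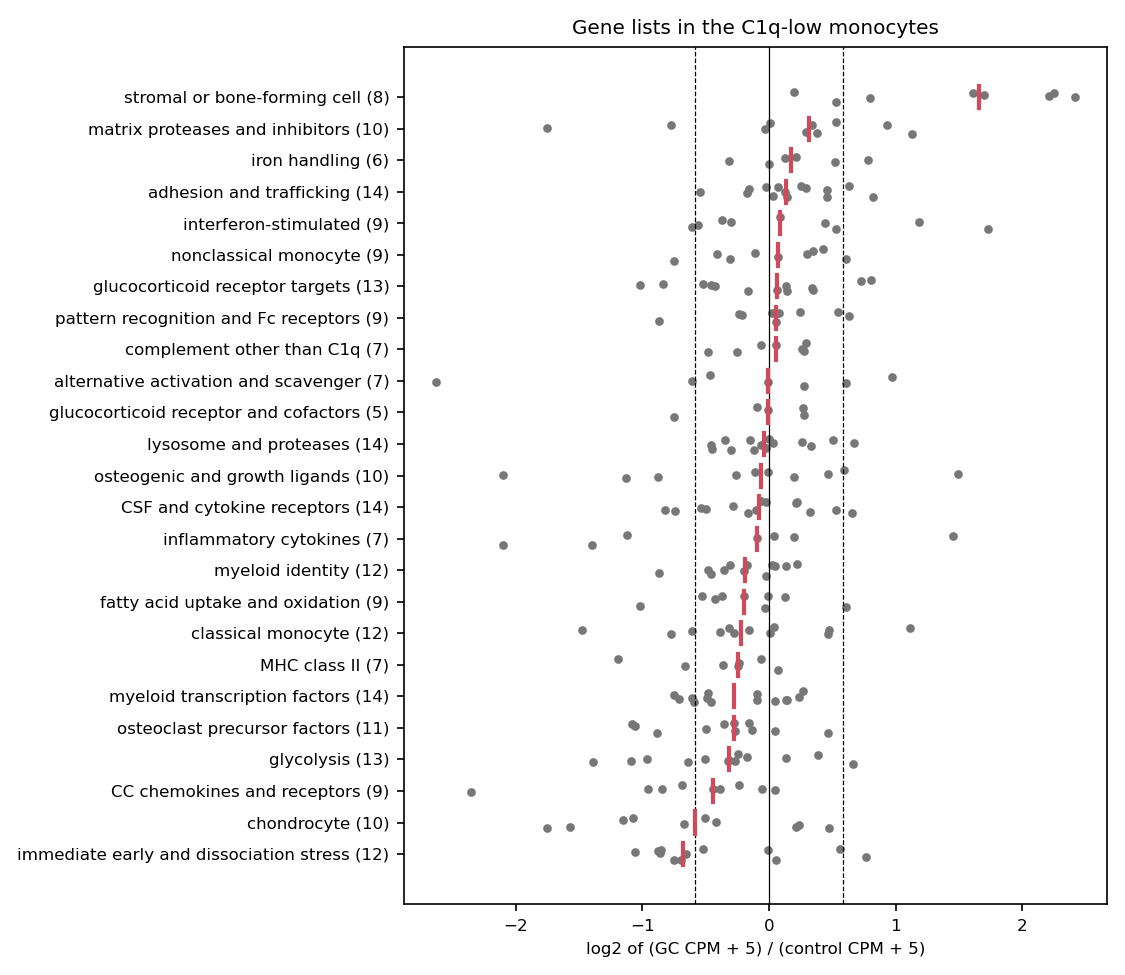
Log2 ratios of GC over control, with 5 CPM added, for the counted genes of 25 lists (gray points, 1 per gene; the number counted is in parentheses), with the list's median in red and dashed lines at 1.5-fold either way. The medians run from -0.68 for immediate early genes to 1.66 for stromal genes, whose median was 0.66 without each gene's leading barcode and -0.22 without members above 2 times their library's median UMIs.

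Genes of glycolysis and of lipid use had medians below 0. Of 13 glycolysis genes, 4 were at least 1.5-fold lower in GC and 1 higher, with a median of -0.32. Slc2a1, the glucose transporter GLUT1, stood at 208 CPM in control and 95.4 CPM in GC, in 233 and 131 members. Pgam1, phosphoglycerate mutase, stood at 491 and 250 CPM, and Pfkl, the liver form of phosphofructokinase, at 42.8 and 13.2 CPM. Eno1, an enolase, stood at 271 and 172 CPM. Hk1, a hexokinase, was higher at 83.6 and 135 CPM, and Ldha, Pgk1, Gapdh and Pkm were between the limits.

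Of 9 counted genes for fatty acid uptake and oxidation, 1 was at least 1.5-fold higher in GC, 1 lower and 7 between, with a median of -0.20. Over all genes counted, 7.82% were higher and 7.49% lower by that fold. The higher gene of the 9 was Cd36, the fatty acid translocase (ratio 1.54, 1.38 to 1.71), found in 143 and 160 members. It was under 1.5-fold in a part of the alternative settings, with a lowest log2 ratio of 0.40 as a mean over cells. The lower gene was Plin2, a coat protein of lipid droplets, at 555 and 272 CPM in 365 and 246 members. The oxidation genes in the list were low: Cpt1a, which controls fatty acid entry into mitochondria, stood at 51.8 and 37.2 CPM, Hadha at 55.1 and 54.8 CPM and Acadm at 17.9 and 25.9 CPM. For Hadha the ratio was 0.994 (0.767 to 1.29), so no difference was detectable at this depth, and Acadm was under the minimum with 44 and 53 UMIs.

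Among growth factors known to act on bone cells, 2 of 10 counted were at least 1.5-fold higher in GC and 3 lower. Bmp2, bone morphogenetic protein 2 (chr2:133552159-133562885), had 45 UMIs in control and 124 in GC (18.4 and 60.6 CPM, a ratio of 3.30, 2.33 to 4.76). The log2 ratio of Bmp2 was 1.49, and 0.32 once each cell had been thinned to 1000 UMIs. It came from 21 and 27 members, with 33.3% and 30.6% of the UMIs in 1 barcode each, and callus B cells stood at 9.78 and 40.3 CPM. Grn, progranulin, stood at 252 and 383 CPM, in 286 and 323 members. Vegfa, the vascular growth factor, stood at 606 and 274 CPM, in 342 and 205 members, and Areg, amphiregulin, at 81.2 and 42.1 CPM in 36 and 31 members. Osm was the third of the lower genes. Tgfb1 was alike in both libraries (477 and 474 CPM). Spp1, osteopontin, stood at 1945 and 1799 CPM, and its log2 ratio ran from -0.32 to 0.59 over the alternative settings. Spp1 had 22.8% and 21.1% of its UMIs in 1 barcode and stood at 5943 and 4801 CPM in callus neutrophils.

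Of 11 counted genes of osteoclast precursors, Fos, Traf6, which relays the signal of the receptor RANK (69.3 and 35.2 CPM), and Trem2 (59.6 and 25.4 CPM) were at least 1.5-fold lower in GC and 0 were higher. Tnfrsf11a, which encodes RANK, had 40 and 32 UMIs, in 32 and 26 members. Of 14 myeloid transcription factors, 4 were at least 1.5-fold lower and 0 were higher, with Irf5 (195 and 126 CPM), Klf2 (95.5 and 61.6 CPM) and Nr4a1 among the lower ones. Spi1, which encodes PU.1, was 295 and 306 CPM. Of 10 counted matrix proteases and inhibitors, Mmp8, neutrophil collagenase (28.1 and 58.2 CPM), and Mmp12, macrophage elastase (46.9 and 109 CPM, in 21 and 45 members), were at least 1.5-fold higher in GC, and Mmp13 and Plaur, the urokinase receptor (329 and 191 CPM), lower.

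Of 9 counted interferon-stimulated genes, Cxcl10 and Ifit1 (16.3 and 43.5 CPM, in 7 and 17 members) were at least 1.5-fold higher in GC and Ifitm3 lower, and the higher levels rested on few members. The peptide-loading genes H2-DMa (142 and 88.0 CPM) and H2-DMb1 (86.9 and 35.2 CPM) were at least 1.5-fold lower, whereas H2-Aa and H2-Eb1 were within 5% of each other in the libraries. Of 9 pattern recognition and Fc receptor genes counted, Clec4e, the receptor Mincle (403 and 628 CPM), was at least 1.5-fold higher and Fcgr3 lower (133 and 70.4 CPM). Within subclusters the ratio of Clec4e went both ways, at 0.592 (0.457 to 0.775) in subcluster 2, 1.13 (0.953 to 1.35) in 3, 1.36 (1.09 to 1.70) in 4 and 2.00 (1.41 to 2.83) in 5. Of 14 lysosome genes, Ctsb alone was past 1.5-fold, with a ratio of 1.59 (1.52 to 1.67) in 422 and 431 members, and of 7 complement genes other than C1q, 0 were. Of 6 iron handling genes, Slc11a2, the iron transporter DMT1, was higher (26.1 and 48.4 CPM). Hmox1 stayed just under 1.5-fold at 3444 and 4945 CPM, a ratio of 1.44 (1.39 to 1.48), and after thinning was found in 73.4% of control (69.0% to 77.5%) and 90.3% of GC members (87.2% to 93.0%), against 3.08% and 6.90% of B cells and 88.6% and 97.3% of the members before thinning.

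Subclusters 2, 3, 4 and 5 held at least 20 members of each library, and genes chosen after their values had been seen were compared within them. Subcluster 5 held both progenitor and stromal transcripts. There, a difference in level and a difference in the mix of barcodes cannot be told apart. Subcluster 1, with 283 control and 7 GC members (64.8% of the control members), was not compared. Osm, Plac8 and Il1b were among its 10 leading genes. The clustering did not leave these genes out, so the groups are not independent of their levels. Plac8 was lower in GC in each compared subcluster, with ratios from 0.490 in subcluster 4 to 0.679 in subcluster 5. Osm was too, at 0.389, 0.548, 0.314 and 0.196 in subclusters 2 to 5, and Chil3 was higher in each, at 1.74, 2.85, 3.38 and 4.95. Il1b varied more, at 0.315 (0.197 to 0.514), 0.765 (0.647 to 0.907), 0.149 (0.105 to 0.207) and 0.807 (0.611 to 1.06), and the interval in subcluster 5 includes 1. Ctsb did not keep its direction, at 1.11 (0.968 to 1.27), 1.28 (1.13 to 1.45), 2.10 (1.82 to 2.43) and 0.731 (0.639 to 0.835).

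Of the other genes compared, Ifitm3 (0.652 to 0.795 over the 4 subclusters), Hilpda (0.112 to 0.637) and Plin2 (0.427 to 0.813) had ratios under 1 in each, and mt-Atp8 had ratios from 3.49 to 7.55. The ratio of Tnf ran from 1.80 to 3.61, on 1 to 8 control UMIs. The interval of Plin2 in subcluster 3 (0.587 to 1.14) and those of Tnf in subclusters 2, 4 and 5 included 1. Cxcl2 went both ways, at 0.145, 0.559, 0.285 and 1.22 (1.05 to 1.42) in subclusters 2 to 5. Hmox1 did so as well, at 0.825 (0.767 to 0.889), 1.66, 1.34 and 1.10. Egln3 had 1 and 7 UMIs in subcluster 2 and 0 and 7 in subcluster 3, and ratios of 0.262 and 0.901 in subclusters 4 and 5, so its lower level in GC was not seen in each.

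Subcluster 4 held 55 control and 56 GC members. Il1b was 1531 CPM in control and 229 CPM in GC. Osm was 319 and 100.3 CPM, a ratio of 0.314 (0.175 to 0.540). Plac8 was 1319 and 646 CPM. Chil3 was 95.7 and 323 CPM, a ratio of 3.38 (1.96 to 6.09), and Ctsb 1547 and 3255 CPM. Cish had 32 UMIs in control and 1 in GC, a ratio of 0.0328 (0.000804 to 0.196). In subclusters 2, 3 and 5 Cish had 0 and 0, 2 and 4, and 15 and 2 UMIs, so it was too rare in subclusters 2 and 3 to compare. Flrt3, in contrast, had 0 and 1 UMIs in subcluster 4, and its ratio was 3.58, 4.25 and 2.96 in subclusters 2, 3 and 5. Subcluster 4 held more neutrophil marker transcripts than the others (1804 CPM), and Il1b and Osm were also lower in GC in callus neutrophils (4057 and 447 CPM, and 747 and 109 CPM). In the 84 barcodes led by Ace and Cd36 at a resolution of 1, whose neutrophil markers summed to 148 CPM, the ratio of GC to control was 0.211 (0.132 to 0.324) for Il1b, 0.352 (0.177 to 0.663) for Osm, 0.426 (0.332 to 0.544) for Plac8, 7.85 (3.35 to 22.4) for Chil3 and 2.13 (1.81 to 2.51) for Ctsb. These 5 genes had the same directions in the 84 barcodes, in subcluster 4 and in the members as a whole. The groupings were made on the same members and are not independent, and the part of neutrophil transcripts in these ratios was not tested.

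The marker lists of other cells were split by what they stand for. Of 8 stromal or bone-forming genes counted, 6 were at least 1.5-fold higher in GC and 0 lower, with a median log2 ratio of 1.66. The direction was not kept: the median was 0.66 without each gene's leading barcode, -0.22 without members above 2 times their library's median UMIs and -0.75 without members that held markers of another cell type, which include markers on this list. Of 10 chondrocyte genes, 5 were at least 1.5-fold lower in GC and 0 higher, with a median of -0.59. Col2a1, which the rule limited, was among the 5. Of 5 C1q macrophage genes counted, 2 were at least 1.5-fold lower, Trem2 among them, and 0 were higher, with a median of -0.22. Of 5 neutrophil genes, 1 was higher (Mmp8) and 1 lower (Il1r2), with a median of -0.26. S100a8 and S100a9, which the rule limited, were among the 5, and the median was the value of S100a9. Of the 4 erythroid, 3 progenitor, 3 cycling, 3 plasmacytoid and 2 osteoclast genes counted, 0 were higher and 2 (Hba-a1 and Hbb-bs), 1 (Elane), 1 (Stmn1), 0 and 0 were lower, and the log2 ratios of these 4 genes turned positive under at least 1 alternative setting. The 2 osteoclast genes were Acp5 and Ctsk, whose summed share the rule limited. No gene of the conventional dendritic, endothelial, B, T and NK, or mast cell lists reached the minimum of 100 UMIs.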

How the data were processed

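Single-cell RNA-Seq libraries of callus and trabecular bone, 1 per tissue and treatment, were deposited by the authors as matrices of UMI counts for 32285 genes, with no normalization. The submitters' processing notes name Cell Ranger 5.0.1, Seurat 3.2.0 and build mm10, whereas the matrix headers name Cell Ranger 4. From these counts, the UMIs of the members were summed per library (2451383 and 2045036) and given as CPM, with exact Poisson, conditional and Clopper-Pearson intervals (scipy 1.17.1). The ratio of GC over control was taken on the log2 scale with 5 CPM added, over genes with at least 100 UMIs in both libraries together. A 1.5-fold difference was described between treatments, and a 2-fold difference in both libraries against C1q macrophages and trabecular barcodes.

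B cells for comparison held at least 3 UMIs of Cd79a and Cd79b, and neutrophils at least 5% of UMIs in S100a8 and S100a9, both without Csf1r. Subclusters came from a graph of 15 neighbors over 20 components of 1500 variable genes, cut at resolution 0.5 (leidenalg 0.10.2). Members, 37 gene lists and named genes were chosen with earlier results of these data known. The text named list genes, the 12 highest and 12 lowest ratios against control and against C1q macrophages, and the 8 highest and 8 lowest against trabecular bone, each among genes of at least 50 CPM. Markers of another cell type meant at least 2 UMIs of the B, T and NK, mast or erythroid lists together, or a chondrocyte and stromal share of 1%. Ratios and intervals were run on simulated Poisson counts drawn from the summed control profile with known folds. Those counts had no spread between barcodes, so the run cannot show how the intervals hold under such spread. Promoters were taken from RefSeq. Doublets were not removed. Some genes are not reported here, though they stay in the counts.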

Additional observations from a re-analysis of the deposited data

Results flagged for a closer look

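Of 215 listed or named genes counted in both tissues, 9 passed 1.5-fold in opposite directions in the callus members and in the trabecular barcodes of the same rule. Not all of the callus ratios held in each alternative setting. Klf2, Ccl4 and Cd36 fell under 1.5-fold in at least 1 (log2 ratios of -0.43, -0.57 and 0.40), and the globins Hba-a1 and Hbb-bs changed direction. With 1 library per tissue and treatment, no difference between the tissues was tested. Each difference given is the log2 ratio of GC over control in callus minus that in trabecular bone.

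Cxcl10, the interferon-induced chemokine, had log2 ratios of 1.73 in callus and -1.64 in trabecular bone, a difference of 3.37, at 34.6 and 7.71 CPM in trabecular bone. For Cxcl2 the ratios were -1.12 and 0.96, a difference of -2.09, and trabecular bone held 173 and 341 CPM. For Ccl4 they were -0.69 and 0.86, a difference of -1.54. Cd36 stood at 15.7 CPM in control trabecular bone and was lower in GC there, and it differed by 1.34 (0.61 and -0.73). Klf2, a transcription factor of quiescence and adhesion, differed by -1.28 (-0.59 and 0.69).

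For mt-Atp8 the ratios were 2.13 and -0.75, a difference of 2.88, and callus B cells and neutrophils shared the direction of the callus members. For Polr2l they were 1.72 and -0.80, a difference of 2.52. The globins Hbb-bs (-0.79 and 1.27) and Hba-a1 (-0.72 and 1.59) differed by -2.06 and -2.31, and 1 control callus barcode held 77.1% and 83.5% of their control callus UMIs. Without each gene's leading barcode the callus ratios turned to 1.13 and 1.29, the direction of trabecular bone.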

How the results depend on the processing

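With 1 library per condition, animals, libraries and treatment cannot be told apart, and no paired analysis was possible because each group has 1 library. Counts past a fold moved with depth and with the minimum. Higher in GC were 149 genes (each cell thinned to 1000 UMIs), 235 (20 CPM added) and 908 (no minimum), and lower were 138, 214 and 883. Against C1q macrophages, 36 (thinned) and 247 (no minimum) genes were higher, and 12 (thinned), 186 (minimum 50 UMIs) and 463 (no minimum) lower. Against trabecular bone, 181 (thinned) and 1146 (no minimum) were higher, and 110 (thinned) and 659 (20 CPM) lower. Leiden resolution 1 gave 12 subclusters. Thinning left fewer genes over the minimum.

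The share of callus barcodes was 5.03% (control) and 4.14% (GC) without members that held markers of another cell type, and 6.58% (GC) at a minimum of 1000 UMIs. Without the members with such markers, these log2 ratios turned: Col1a1 -0.38, Col1a2 -0.78, Col3a1 -1.57, Dcn -0.71, Ibsp -0.11, Alpl -1.11, Lum -0.68, Col12a1 -1.02, Prg4 -0.16, Fosb -0.65, Stmn1 0.32, Hba-a1 1.11, Hbb-bs 0.79, the stromal list -0.75 and the erythroid list 0.67. That alternative picks members by stromal, chondrocyte and erythroid markers, so the turns of those markers and lists follow from its construction. Without members above 2 times their library's median UMIs, Col3a1 was -1.38, Dcn -0.41, Alpl -1.04, Lum -0.88, Col12a1 -0.95, Prg4 -0.14, Fosb -0.58, Stmn1 0.18, Elane 0.18 and the stromal list -0.22. Without each gene's leading barcode, Alpl was -0.022, Lum -0.65, Col12a1 -0.16, Prg4 -0.11, Hba-a1 1.29, Hbb-bs 1.13 and the erythroid list 1.15. Thinned, Alpl was -0.54, Lum -0.16, Fosb -0.36 and Hba-a1 0.11, and as a mean over cells Alpl was -0.53 and Fosb -0.25. Among genes and lists at least 1.5-fold apart in the main setting, these were the turns. They were 34 values for genes, out of 35 genes higher and 60 lower in GC, and 4 values for lists. The 4020 gene values and 465 list values over all alternatives also include genes and lists under 1.5-fold, whose turns are not in these counts. Genes under 1.5-fold in the main setting turned as well, such as Egr1 (0.56, lowest alternative -1.94) and Acan (0.48, lowest alternative -1.06). The alternatives on leading barcodes, deep members and Leiden resolution were chosen after seeing the data.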
